A study of Homo sapiens with 6 samples.

Results

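The genes described here regulate or mark the cell lineages of the prostate epithelium: the transcription factor genes GATA2, GATA3, FOXA1, HOXB13 and TP63, the protease gene TMPRSS2, the basal cell gene TRIM29 and the surface antigen gene STEAP1. These genes, and the gene lists used below, were chosen with earlier results of these data known. Probe sets were then taken by symbol alone, as those whose array annotation gives a single symbol equal to one of the 8 genes. This gave 18 probe sets for 7 of the 8 genes, out of 41091 single-symbol probe sets for 19775 genes. The expression of TP63 was not analysed here. Signals came from TEM4-18 cells, TEM2-5 cells and PC-3 cells, with 2 expression arrays for each line and no drug or genetic treatment. PC-3 is an androgen-independent line from a bone metastasis of prostate cancer, and served as the parental line. TEM4-18 was obtained from PC-3 cells that had passed through a layer of lung microvascular endothelial cells, and TEM2-5 came from a repeat of that experiment. Each of these is a single isolate of a single parental line, all 3 lines were grown in DMEM/F12 with 10% FBS, and no label says that paired arrays of a line are separate cultures. Each p-value thus rests on array-to-array spread alone, and that spread may be technical.

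The prostate gland has a luminal layer of secretory cells and a basal layer beneath it. In luminal cells the response to androgens needs pioneer factors: FOXA1 and GATA2 bind closed chromatin and make enhancers accessible, and HOXB13, a homeodomain protein of the prostate, helps select prostate-specific sites. GATA3 maintains luminal epithelial identity in several glands. TMPRSS2 encodes an androgen-regulated serine protease of the cell membrane, whose promoter is often fused to ERG in prostate cancer. TRIM29 is a marker of basal cells, in which p63, the product of TP63, is the leading transcription factor, and STEAP1 is a membrane protein abundant on prostate cells. PC-3 cells are known for growing without androgens.

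Values are MAS5 signals in array units, deposited by the authors on a linear scale. Median signals lay between 266.9 and 316.9 on the 6 arrays. Fold changes are on the log2(signal + 51.8) scale, which understates the change of low signals, and were tested with limma over all probe sets with a mean signal above 178. Of the 18 probe sets, 15 passed this filter, among them at least 1 for each of the 7 genes. The line markers KRT8 and KRT18, keratins of luminal cells, had PC-3 signals of 23433 and 22688 and of 60111 and 58278, and VIM, the mesenchymal intermediate filament, 45941 and 47129. KLK3, the androgen-driven PSA gene, had 2 probe sets between 18.2 and 136.9 on all arrays. Another KLK3 probe set, 231629_x_at, of a type that can match related sequences, read 770.0 to 1301.

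In the brightest probe set of each gene, GATA2, GATA3, FOXA1 and TRIM29 fell in both TEM lines, while HOXB13 and TMPRSS2 rose in both. STEAP1 rose in TEM2-5 by 0.37 on the log2 scale. With an adjusted p under 0.05, 6 of 7 genes differed between TEM4-18 and PC-3, 4 lower and 2 higher, against 29.4% of all 13557 genes tested. Between TEM2-5 and PC-3, 7 of 7 differed, 4 lower and 3 higher, against 19.1% of all genes. Both comparisons use the same PC-3 arrays. Since the genes were chosen with earlier results of these data known, these counts are no test of enrichment over the shares. Leaving out either PC-3 array or TEM2-5 replicate 1 left 4 genes called in TEM2-5, and leaving out TEM2-5 replicate 2 left 3. When all probe sets of a gene were averaged, it was 2, HOXB13 and TMPRSS2. Counted by probe set, 13 of 15 passed in TEM4-18, 5 higher and 8 lower, against 25.8% of all probe sets (12.9% higher and 12.9% lower). In TEM2-5, 11 of 15 passed, 6 higher and 5 lower, against 16.4% (8.74% higher and 7.65% lower). Between the TEM lines 4 of 15 passed, 1 higher and 3 lower in TEM4-18, against 1.8% (0.36% higher and 1.44% lower). Some of the 15 passed the filter through the lines in which they were high, TRIM29 211002_s_at and GATA3 209602_s_at among them. In 13 of the 15 tested probe sets the TEM2-5 mean lay between those of TEM4-18 and PC-3, as it did in 52.2% of all tested probe sets, most of which did not pass in either line. The exceptions were GATA2 207954_at and STEAP1 205542_at, in which TEM2-5 was the highest.

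**Figure D1:**
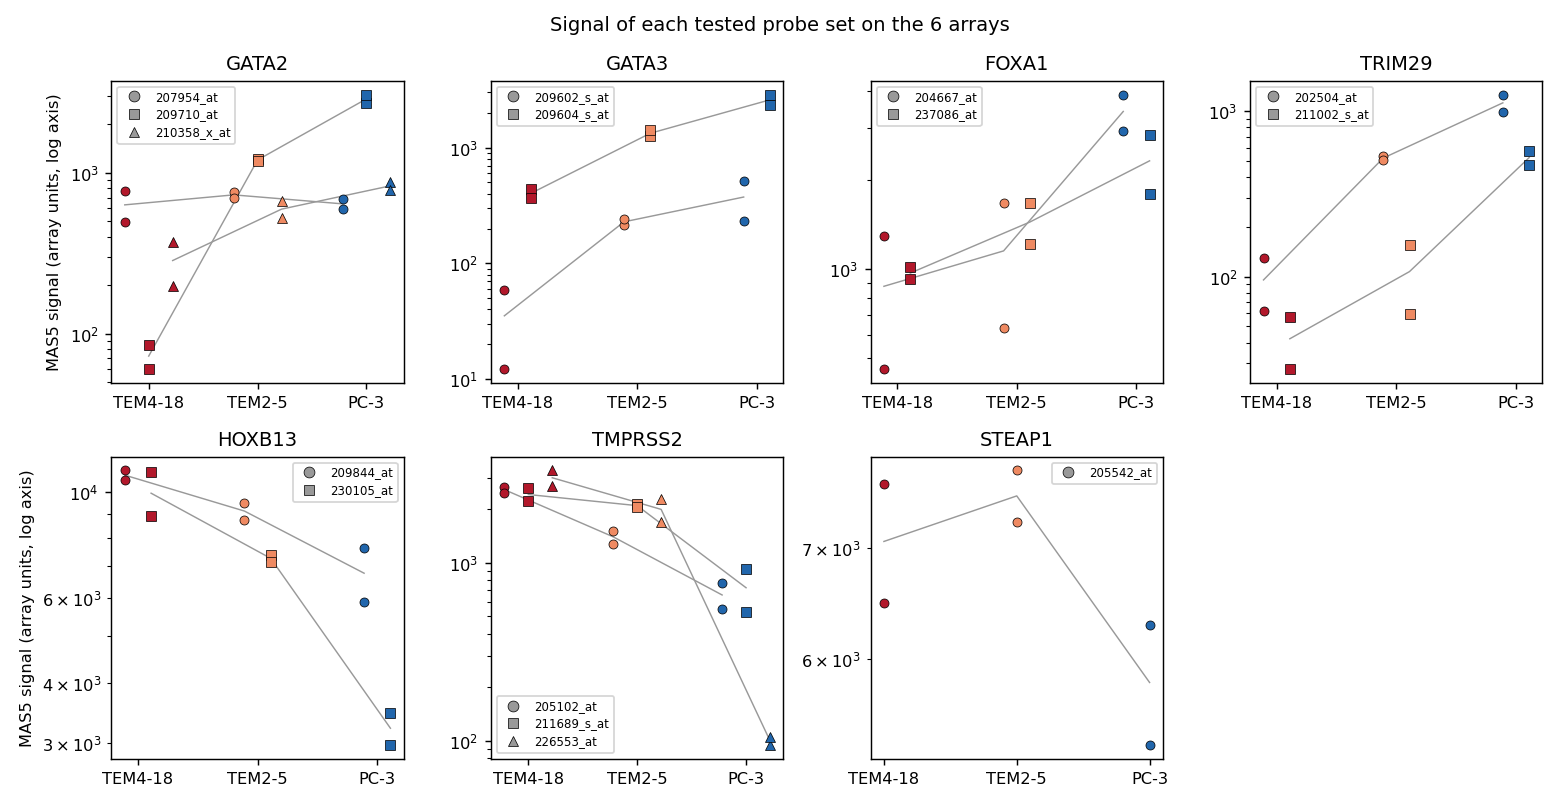
MAS5 signal (array units, log axis) of the 15 tested probe sets in TEM4-18, TEM2-5 and PC-3. Each point is 1 array, marker shapes distinguish probe sets of a gene, and grey lines join the line means; GATA2 209710_at sits between 59.8 and 85.1 in TEM4-18 and between 2707 and 3054 in PC-3, and TMPRSS2 226553_at shows the opposite order.

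GATA2 encodes a zinc-finger pioneer factor of the androgen response. Its brightest probe set, 209710_at, had signals of 85.1 and 59.8 in TEM4-18, 1217 and 1185 in TEM2-5, against 2707 and 3054 in PC-3. The 3 lines did not overlap, and TEM4-18 was at the level of the pseudocount. The log2 fold change against PC-3 was -4.57 ± 0.19 in TEM4-18 (SE, adjusted p = 9.86e-08) and -1.22 ± 0.19 in TEM2-5 (adjusted p = 0.00173). The TEM lines also differed from each other, by -3.34 ± 0.19 for TEM4-18 against TEM2-5 (adjusted p = 5.96e-06). In bulk RNA, fewer cells with the transcript and less transcript per cell cannot be told apart.

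The other GATA2 probe sets did not all show this fall. Probe set 210358_x_at read 197.7 and 371.3 in TEM4-18, 666.3 and 521.5 in TEM2-5, against 872.1 and 786.6 in PC-3. It fell in TEM4-18 (log2 fold change -1.44 ± 0.28, adjusted p = 0.00334), while the TEM2-5 value of -0.46 ± 0.28 did not pass (adjusted p = 0.314). Probe set 207954_at gave 769.8 and 493.0 in TEM4-18, 756.8 and 700.1 in TEM2-5, against 689.4 and 591.7 in PC-3, with overlapping TEM4-18 and PC-3 arrays. Its log2 fold changes were -0.05 ± 0.23 (95% interval -0.56 to 0.46) in TEM4-18 and 0.18 ± 0.23 in TEM2-5. With all 3 probe sets averaged, GATA2 was at -2.02 in TEM4-18 (adjusted p = 5.79e-05) and -0.50 in TEM2-5 (adjusted p = 0.0679), so the TEM2-5 call was lost.

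GATA3, the luminal relative of GATA2, was read best by 209604_s_at. Its signals were 435.0 and 368.8 in TEM4-18, 1255 and 1407 in TEM2-5, against 2863 and 2318 in PC-3. These values were again ordered TEM4-18, TEM2-5, PC-3 without overlap. GATA3 fell by 2.54 ± 0.17 on the log2 scale in TEM4-18 (adjusted p = 2.67e-06) and by 0.93 ± 0.17 in TEM2-5 (adjusted p = 0.00412). TEM4-18 lay below TEM2-5 by 1.61 on the log2 scale (fold change -1.61 ± 0.17, adjusted p = 0.000631).

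A second GATA3 probe set, 209602_s_at, was dimmer, with 58.3 and 12.1 in TEM4-18, 213.0 and 243.8 in TEM2-5, against 517.4 and 230.8 in PC-3. It fell in TEM4-18 (-2.26 ± 0.52, adjusted p = 0.00880). Its TEM4-18 mean of 35.2 lay below the pseudocount, and the size of the fall depended on that constant. The value was -3.64 with a pseudocount of 1 (adjusted p = 0.0164) and -1.22 with 4 times the pseudocount (adjusted p = 0.0089). The TEM2-5 arrays overlapped those of PC-3 (-0.52 ± 0.52, adjusted p = 0.561). The TEM4-18 call of this probe set was lost without PC-3 replicate 1 (-1.75, adjusted p = 0.0993). The remaining one, 209603_at, lay below the filter, with 118.3 and 35.3 in TEM4-18, 52.3 and 57.4 in TEM2-5, against 344.5 and 166.0 in PC-3.

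FOXA1, the forkhead pioneer factor of luminal cells, varied more between arrays of a line than GATA2 or GATA3 did in their brightest probe sets. Probe set 204667_at read 1291 and 458.1 in TEM4-18, 1672 and 632.2 in TEM2-5, against 3879 and 2935 in PC-3. The arrays of a TEM line differed by 2.82 times in TEM4-18 and 2.64 times in TEM2-5. Every TEM array lay below both PC-3 arrays, and the TEM lines overlapped. FOXA1 fell in TEM4-18 (log2 fold change -2.05 ± 0.45, adjusted p = 0.00710) and in TEM2-5 (-1.66 ± 0.45, adjusted p = 0.0309). The TEM4-18 call was lost without TEM4-18 replicate 2 (-1.35, adjusted p = 0.0506). The TEM2-5 call was lost without TEM2-5 replicate 2 (-0.99, adjusted p = 0.217). It also failed when PC-3 replicate 1 was left out (-1.46, adjusted p = 0.131), as when PC-3 replicate 2 was (-1.86, adjusted p = 0.0682).

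The other FOXA1 probe set, 237086_at, had tighter TEM4-18 arrays: 1015 and 923.9 in TEM4-18, 1666 and 1218 in TEM2-5, against 2843 and 1799 in PC-3. It fell in TEM4-18 (-1.18 ± 0.22, adjusted p = 0.00245). In TEM2-5 its value was -0.65 ± 0.22 (95% interval -1.13 to -0.17, adjusted p = 0.0692), which did not pass. It was -0.33 (adjusted p = 0.380) when PC-3 replicate 1 was left out, and with PC-3 replicate 2 left out it passed, at -0.97 (adjusted p = 0.0174).

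**Figure D2:**
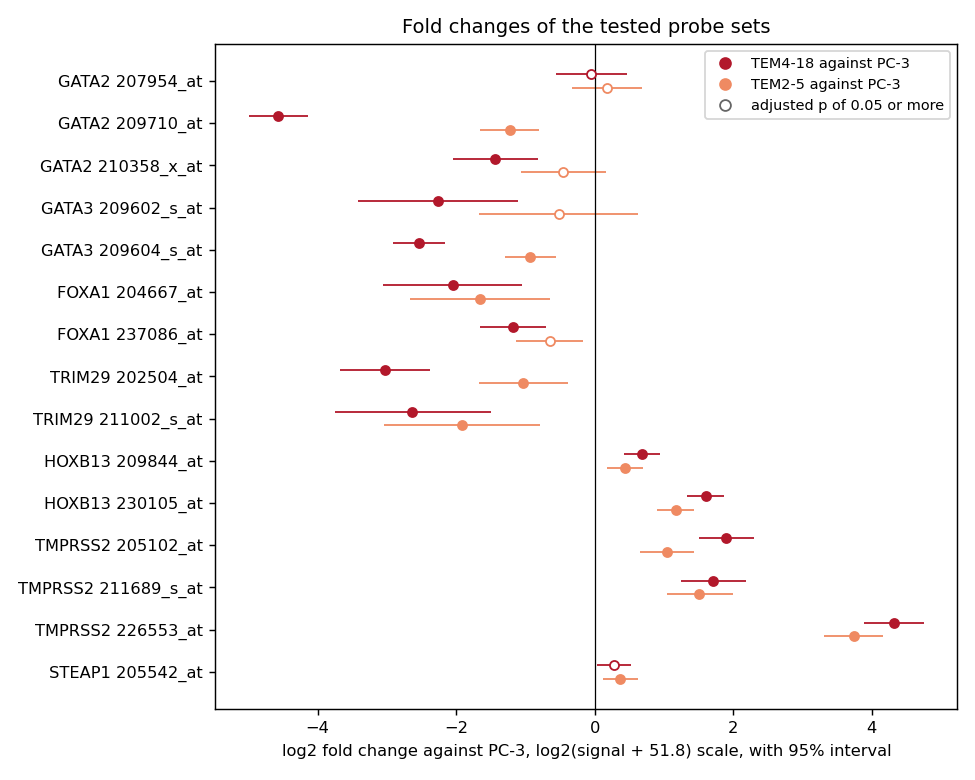
Log2 fold change against PC-3, on the log2(signal + 51.8) scale, of each tested probe set in TEM4-18 and TEM2-5, with 95% intervals from the fit; open points have an adjusted p of 0.05 or more. GATA2 209710_at at -4.57 and TMPRSS2 226553_at at 4.32 in TEM4-18 are the extremes, and STEAP1 lies at 0.28 in TEM4-18 and 0.37 in TEM2-5.

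RefSeq promoter entries (GRCh38.p14, 250 bases before to 50 after a start) were matched by symbol for 5 of the 8 genes, 11 entries in all, with 6 for GATA3. They were searched on both strands for the E-box CACCTG, the letters bound by factors of the Snail and ZEB families. No 2 matches overlapped. The E-box was in 1 of the 2 GATA2 entries, in the FOXA1 entry and in the STEAP1 entry, and in none of the 6 for GATA3. Of all 35116 promoter entries, 20.6% held it. Those 3 sequences follow, 5′ to 3′ on the strand of the gene, as the member promoters that hold it; capitals mark the E-box, which reads CAGGTG on the strand printed.
GATA2, chr3:128488481-128488780, minus strand: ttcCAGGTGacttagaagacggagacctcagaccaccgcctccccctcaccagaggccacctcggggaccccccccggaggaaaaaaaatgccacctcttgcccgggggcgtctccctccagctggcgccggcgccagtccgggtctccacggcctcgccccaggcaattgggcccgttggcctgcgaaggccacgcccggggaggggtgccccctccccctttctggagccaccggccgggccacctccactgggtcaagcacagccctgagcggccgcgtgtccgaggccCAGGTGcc
FOXA1, chr14:37595200-37595499, minus strand: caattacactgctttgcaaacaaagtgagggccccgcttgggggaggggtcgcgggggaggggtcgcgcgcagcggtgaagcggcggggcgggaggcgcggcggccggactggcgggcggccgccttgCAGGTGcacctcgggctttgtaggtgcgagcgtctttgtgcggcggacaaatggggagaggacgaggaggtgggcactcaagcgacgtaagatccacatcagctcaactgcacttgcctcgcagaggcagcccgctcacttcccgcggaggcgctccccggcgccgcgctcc
STEAP1, chr7:90154219-90154518, plus strand: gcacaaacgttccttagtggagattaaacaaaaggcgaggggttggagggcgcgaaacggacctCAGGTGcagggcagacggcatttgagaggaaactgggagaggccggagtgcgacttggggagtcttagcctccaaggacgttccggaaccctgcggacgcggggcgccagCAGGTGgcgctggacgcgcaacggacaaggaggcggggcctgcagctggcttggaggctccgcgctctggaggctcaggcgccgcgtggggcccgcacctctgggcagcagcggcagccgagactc
The GATA2 matches began at bases -247 and 43 from the start, that of FOXA1 at -122 and those of STEAP1 at -186 and -76. Entries with 2 or more matches made up 3.49% of all. A match is a string of letters in a window and was not tested against the array values. Neither the GATA motif (AGATAA and the variants TGATAA as well as AGATAG and also TGATAG, in 25.0% of all entries) nor the forkhead motif (TGTTTAC and the variant TATTTAC, in 5.97%) occurred in the entries of GATA2, GATA3, FOXA1 or STEAP1. The TP63 entry held no E-box and no forkhead motif, and a GATA motif beginning at base 8.

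TRIM29 encodes a tripartite-motif protein used as a basal cell marker. In probe set 202504_at its signals were 129.3 and 61.7 in TEM4-18, 536.3 and 502.9 in TEM2-5, against 987.1 and 1253 in PC-3. The lines did not overlap and followed the order seen for GATA2 and GATA3. TRIM29 fell by 3.02 ± 0.29 on the log2 scale in TEM4-18 (adjusted p = 3.51e-05) and by 1.03 ± 0.29 in TEM2-5 (adjusted p = 0.0363), and TEM4-18 lay below TEM2-5 (-1.99 ± 0.29, adjusted p = 0.00601). The TEM2-5 call was lost when any 1 PC-3 or TEM2-5 array was left out, with values of -0.86 (adjusted p = 0.214) to -1.19 (adjusted p = 0.0733) when a PC-3 array was omitted, and of -1.07 (adjusted p = 0.129) and -0.99 (adjusted p = 0.162) when a TEM2-5 array was. The difference between the TEM lines did not pass without TEM2-5 replicate 1 (adjusted p = 0.0723) or replicate 2 (adjusted p = 0.0541).

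Probe set 211002_s_at of TRIM29 gave 56.8 and 27.5 in TEM4-18, 155.0 and 59.5 in TEM2-5, against 471.6 and 575.1 in PC-3. It fell in TEM4-18 (-2.63 ± 0.51, adjusted p = 0.00335) and in TEM2-5 (-1.92 ± 0.51, adjusted p = 0.0271), and the TEM2-5 call was lost without either PC-3 replicate (adjusted p = 0.0973 without replicate 1 and 0.175 without replicate 2) or TEM2-5 replicate 2 (adjusted p = 0.151). The remaining one, 211001_at, was below the filter at 16.3 to 182.9 over the 6 arrays.

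HOXB13 went the other way. Its brightest probe set, 209844_at, had signals of 11073 and 10583 in TEM4-18, 9481 and 8744 in TEM2-5, against 7630 and 5895 in PC-3. The lines did not overlap, with PC-3 lowest. HOXB13 rose by 0.69 ± 0.12 on the log2 scale in TEM4-18 (adjusted p = 0.00148) and by 0.44 ± 0.12 in TEM2-5 (adjusted p = 0.0271). The TEM2-5 call was lost without PC-3 replicate 2 (0.25, adjusted p = 0.167), without TEM2-5 replicate 1 (0.38, adjusted p = 0.154) and without TEM2-5 replicate 2 (0.50, adjusted p = 0.0711).

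The rise was larger in HOXB13 probe set 230105_at, which read 10972 and 8885 in TEM4-18, 7390 and 7134 in TEM2-5, against 3464 and 2962 in PC-3. The mean signal was 3.09 times that of PC-3 in TEM4-18 (log2 fold change 1.61 ± 0.12, adjusted p = 5.55e-06) and 2.26 times in TEM2-5 (1.17 ± 0.12, adjusted p = 0.000128). TEM4-18 and TEM2-5 differed by 0.44 ± 0.12 here (95% interval 0.18 to 0.70), which did not pass (adjusted p = 0.115).

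TMPRSS2 had the strongest rise of the 7 genes. In its brightest probe set, 211689_s_at, signals were 2614 and 2222 in TEM4-18, 2127 and 2061 in TEM2-5, against 921.2 and 528.7 in PC-3. The log2 fold change was 1.71 ± 0.21 in TEM4-18 (adjusted p = 0.000212) and 1.51 ± 0.21 in TEM2-5 (adjusted p = 0.000948). TEM4-18 was above TEM2-5 on every array of this probe set, by 0.20 ± 0.21 (95% interval -0.28 to 0.67, adjusted p = 0.787), which did not pass.

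Probe set 226553_at of TMPRSS2 read 3299 and 2705 in TEM4-18, 2288 and 1703 in TEM2-5, against 94.8 and 106.0 in PC-3, where it was dim. The PC-3 signals were below the filter value of 178 and are not shown to be above background, so no ratio is given and the fitted values depend on the pseudocount. On the log2 scale the rises were 4.32 ± 0.19 (adjusted p = 1.73e-07) and 3.74 ± 0.19 (TEM2-5, adjusted p = 2.45e-06). Probe set 205102_at gave 2677 and 2474 in TEM4-18, 1519 and 1280 in TEM2-5, against 773.2 and 547.3 in PC-3. It rose by 1.90 ± 0.18 in TEM4-18 (adjusted p = 2.90e-05) and by 1.04 ± 0.18 in TEM2-5 (adjusted p = 0.00299), and its difference between the TEM lines was 0.86 ± 0.18 (adjusted p = 0.0408). That difference did not pass when any 1 TEM array was left out, with adjusted p of 0.130 to 0.250. The fourth probe set, 1570433_at, lay below the filter, at 35.8 to 278.6 over the 6 arrays. The 3 tested probe sets of TMPRSS2 agreed in direction and differed in size.

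STEAP1 was high in all 3 lines in its only probe set, 205542_at. Its signals were 6478 and 7642 in TEM4-18, 7251 and 7791 in TEM2-5, against 5320 and 6288 in PC-3. Every TEM array lay above both PC-3 arrays, and the TEM lines overlapped. STEAP1 rose by 0.37 ± 0.11 on the log2 scale in TEM2-5 (adjusted p = 0.0470), a mean 1.30 times that of PC-3. In TEM4-18 the value was 0.28 ± 0.11 (95% interval 0.03 to 0.53, adjusted p = 0.0982) and did not pass. The TEM2-5 call was lost without PC-3 replicate 1 (0.26, adjusted p = 0.239), without TEM2-5 replicate 1 (0.43, adjusted p = 0.106) and without TEM2-5 replicate 2 (0.32, adjusted p = 0.220).

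Set directly against each other, TEM4-18 and TEM2-5 differed in 3 of the 7 genes, all lower in TEM4-18, against 2.77% of all genes tested (2.27% lower and 0.494% higher). This count too is no test of enrichment, given how the genes were chosen. The 3 genes were GATA2, GATA3 and TRIM29, whose values are given above. For FOXA1 the difference was -0.39 ± 0.45 (95% interval -1.39 to 0.61, adjusted p = 0.804), for HOXB13 209844_at 0.25 ± 0.12 (95% interval -0.01 to 0.51) and for STEAP1 -0.09 ± 0.11 (95% interval -0.35 to 0.16). The count was 2 without either TEM2-5 array and 1, GATA2, with all probe sets of a gene averaged.

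Close relatives and partners of these genes did not move as a block. Of 22 such genes, 20 had a single-symbol probe set and 16 were tested. In TEM4-18, 5 fell and 2 rose (median log2 fold change -0.29, against -0.04 over all genes, of which 16.1% fell and 13.3% rose). In TEM2-5, 4 fell and 2 rose (median -0.22, against -0.02 over all genes, of which 10.1% fell and 9.04% rose). FOXA2, a forkhead factor related to FOXA1 that is typical of endoderm and of neuroendocrine prostate tumours, read 11709 and 12163 in TEM4-18, 8903 and 8815 in TEM2-5, against 2255 and 1960 in PC-3. It rose by 2.48 ± 0.10 on the log2 scale in TEM4-18 (adjusted p = 7.09e-08) and by 2.05 ± 0.10 in TEM2-5 (adjusted p = 1.96e-06), opposite to FOXA1. Of the 3 FOXA2 probe sets, 2 rose in each line, and 214312_at, at 93.6 to 357.8, did not pass.

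Among proteases of the membrane and their inhibitors, ST14, which encodes matriptase, fell while TMPRSS2 rose. Its signals were 49.2 and 119.7 in TEM4-18, 892.7 and 1275 in TEM2-5, against 6527 and 8716 in PC-3, log2 fold changes of -5.85 ± 0.27 (adjusted p = 1.95e-07) and -2.76 ± 0.27 (TEM2-5, adjusted p = 9.1e-05). SPINT1, an inhibitor of such proteases, read 887.4 and 671.6 in TEM4-18, 1595 and 1839 in TEM2-5, against 6591 and 7902 in PC-3, with log2 fold changes of -3.14 ± 0.16 and -2.04 ± 0.16 (TEM2-5). Its other probe set, 235546_at, fell less in TEM4-18 (-1.51 ± 0.28) and did not pass in TEM2-5 (-0.79 ± 0.28, adjusted p = 0.0848). The hepsin gene HPN did not pass in either line (-0.45 ± 0.24 in TEM4-18, adjusted p = 0.219, and -0.25 ± 0.24 in TEM2-5, adjusted p = 0.556). ERG, the fusion partner of TMPRSS2, stayed below the filter in all 4 of its probe sets, at 3.96 to 172.3.

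Within the STEAP family, STEAP4, a metalloreductase, read 222.0 and 154.5 in TEM4-18, 447.9 and 328.5 in TEM2-5, against 1300 and 1112 in PC-3. It fell by 2.40 ± 0.26 on the log2 scale in TEM4-18 (adjusted p = 7.99e-05) and by 1.52 ± 0.26 in TEM2-5 (adjusted p = 0.00293). STEAP2 did not pass, at 0.01 ± 0.16 in TEM4-18 (adjusted p = 0.972) and 0.21 ± 0.16 in TEM2-5 (adjusted p = 0.412). STEAP3, another metalloreductase, was at 0.26 in TEM4-18 (adjusted p = 0.150) and 0.28 in TEM2-5 (adjusted p = 0.157), which did not pass. Of the GATA family and its cofactors, 3 of 7 tested genes fell in each line and none rose. Over all genes, 16.1% fell and 13.3% rose in TEM4-18, and 10.1% fell and 9.04% rose in TEM2-5. Without the mean-variance trend, 1 gene of this family was called in TEM4-18 and 0 in TEM2-5. With all probe sets of a gene averaged, 0 were called in TEM2-5. GATA6, an endodermal relative, was at -1.28 ± 0.18 in TEM4-18 (adjusted p = 0.000509) and -0.66 ± 0.18 in TEM2-5 (adjusted p = 0.0324) in 1 of its 2 probe sets, and the other did not pass in either line. The count for this family was 1 in TEM4-18 without PC-3 replicate 2. In TEM2-5 it was 1 without PC-3 replicate 1 or TEM2-5 replicate 2, and 0 without PC-3 replicate 2 or TEM2-5 replicate 1.

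**Figure D3:**
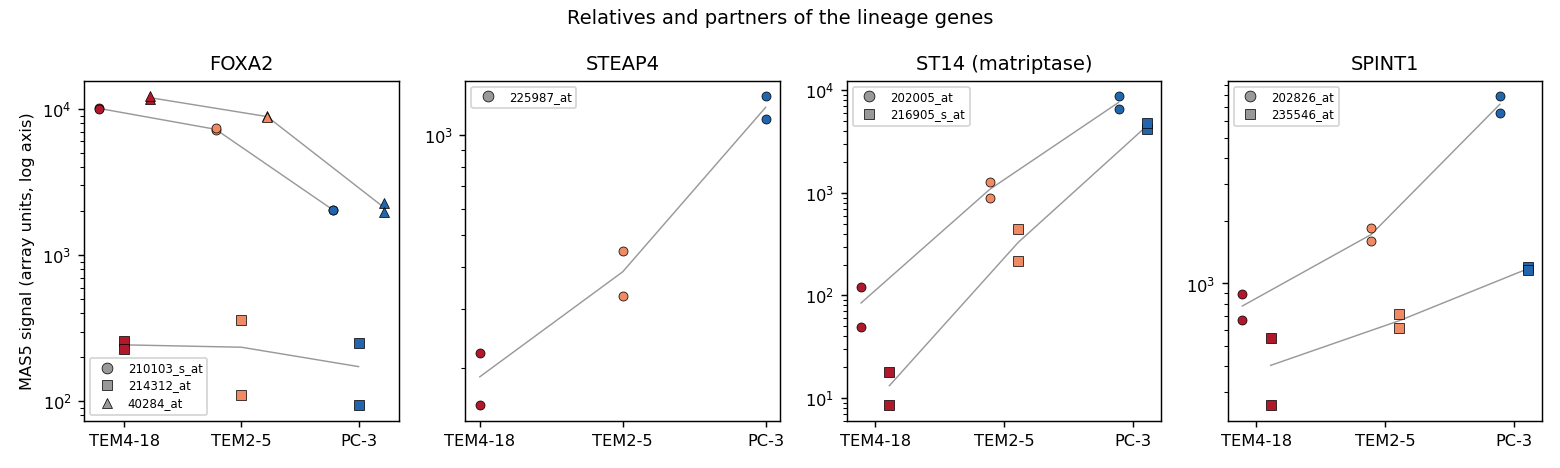
MAS5 signal (array units, log axis) of the tested probe sets of FOXA2, STEAP4, ST14 and SPINT1 in TEM4-18, TEM2-5 and PC-3; each point is 1 array and grey lines join line means. FOXA2 is higher in both TEM lines in 2 of 3 probe sets, while ST14 falls to 49.2 and 119.7 in TEM4-18 in its brightest probe set.

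Luminal and basal genes were then counted, since the members mark both layers. Of all genes tested, 16.1% fell and 13.3% rose in TEM4-18, and 10.1% fell and 9.04% rose in TEM2-5. Of 17 luminal and androgen-response genes, 15 had a single-symbol probe set and 10 were tested. Among those tested, 6 fell and 0 rose in TEM4-18 (median -0.80), and 4 fell and 0 rose in TEM2-5 (median -0.27). Those that fell in both were KRT8 (-1.78 in TEM4-18 and -1.32 in TEM2-5), KRT18 (-1.02 and -0.97 in TEM2-5), SLC45A3, which encodes prostein (-0.96 and -0.96 in TEM2-5), and PMEPA1, a negative regulator of TGF-beta signalling that androgens also induce (-2.33 and -1.59 in TEM2-5). In TEM2-5, 2 of the 3 PMEPA1 probe sets passed. Of 22 basal and p63-associated genes, 16 had a single-symbol probe set and 12 were tested. In each line 9 fell and 1, the desmosomal cadherin gene DSC3, rose (median -0.99 in TEM4-18 and -0.59 in TEM2-5). CDH3, the P-cadherin gene, read 19.2 and 26.1 in TEM4-18, 568.9 and 660.4 in TEM2-5, against 6809 and 6358 in PC-3. Its TEM4-18 signals were below the pseudocount, which largely sets the fitted value of -6.48 there, and in TEM2-5 the value was -3.32 ± 0.19. Other basal genes that fell were SERPINB5, the maspin gene, at -3.83 and -1.24 (TEM2-5), and ITGB4, a hemidesmosome integrin gene, at -3.64 and -2.23 (TEM2-5). In TEM2-5, 1 of the 2 SERPINB5 probe sets passed. The basal keratins KRT5, at 24.1 to 181.8, and KRT14, at 11.1 to 23.0, lay below the filter. Without the mean-variance trend, 4 basal genes were called in TEM2-5.

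Of 17 cofactors and partners of the androgen response, 12 had a single-symbol probe set, and all 12 were tested. In TEM4-18 4 fell and 1 rose, and in TEM2-5 4 fell and 0 rose (medians -0.07 and -0.16 in TEM2-5), beside the shares over all genes of 16.1% lower and 13.3% higher in TEM4-18 and 10.1% lower and 9.04% higher in TEM2-5. Without the mean-variance trend the TEM2-5 count was 2. GRHL2, a grainyhead factor of epithelial cells, was at -4.46 ± 0.20 in TEM4-18 and -1.98 ± 0.20 in TEM2-5, and MEIS2, a homeodomain partner of HOX proteins, at -1.40 ± 0.12 and -0.47 ± 0.12 (TEM2-5, adjusted p = 0.0209). Of 16 neuroendocrine genes, 14 had a single-symbol probe set, and 8 of these 14 lay below the filter. The other 6 were tested, with 1 higher and 1 lower in TEM4-18. In TEM2-5 none of the 6 passed in limma, and 1, the enolase gene ENO2, had an unadjusted p under 0.05. Of 8 urothelial genes, 3 were tested, and the uroplakin gene UPK1B did not pass. PPARG (-1.50 and -1.17 in TEM2-5) and ELF3 (-2.42 and -1.49 in TEM2-5) fell in both lines in their brightest probe sets. Of the 3 ELF3 probe sets, 2 fell in TEM4-18 and 1 in TEM2-5.

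GATA2 is also an endothelial gene, and the TEM lines had been in contact with endothelial cells. Of 11 endothelial markers, 5 were tested, with 3 higher and 0 lower in TEM4-18 and 2 higher and 0 lower in TEM2-5. Over all genes, 13.3% were higher and 16.1% lower in TEM4-18, and 9.04% higher and 10.1% lower in TEM2-5. With all probe sets of a gene averaged, 2 endothelial markers were higher and 1 lower in TEM4-18. The summed signal of the 11 endothelial markers was 4025 to 5370 in TEM4-18, 4260 to 4471 in TEM2-5, and 2816 to 3090 in PC-3. KDR, a VEGF receptor gene, rose in both lines (2.40 ± 0.32 in TEM4-18 and 2.29 ± 0.32 in TEM2-5), as did ROBO4 in 1 of its 2 tested probe sets. ESAM, an endothelial adhesion gene, rose in TEM4-18 (1.40 ± 0.22, adjusted p = 0.000958) and was at 0.71 in TEM2-5 (adjusted p = 0.0524). PECAM1 (-0.40 and 0.08 in TEM2-5) and EGFL7 (-0.51 and -0.56 in TEM2-5) did not pass. The other 6 markers, CDH5, VWF, TEK, TIE1, EMCN and CLDN5, lay below the filter in their brightest probe sets. The part of these markers in the member values was not tested. The TEM2-5 count was 1 without PC-3 replicate 1 or without either TEM2-5 array. The summed signal of 9 fibroblast markers was 20423 to 23639 in TEM4-18, 22406 to 25770 in TEM2-5, and 9364 to 11041 in PC-3. Most of it came from the collagen gene COL1A1, which read 18862 and 22388 in TEM4-18, 18052 and 21920 in TEM2-5, against 6869 and 8299 in PC-3. Of the 6 fibroblast markers tested, 1 rose and 2 fell in TEM4-18, and 2 rose and 0 fell in TEM2-5, beside the same shares over all genes. The part of these markers in the member values was not tested either. Of the leukocyte markers ITGAM alone was tested and did not pass.

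**Figure D4:**
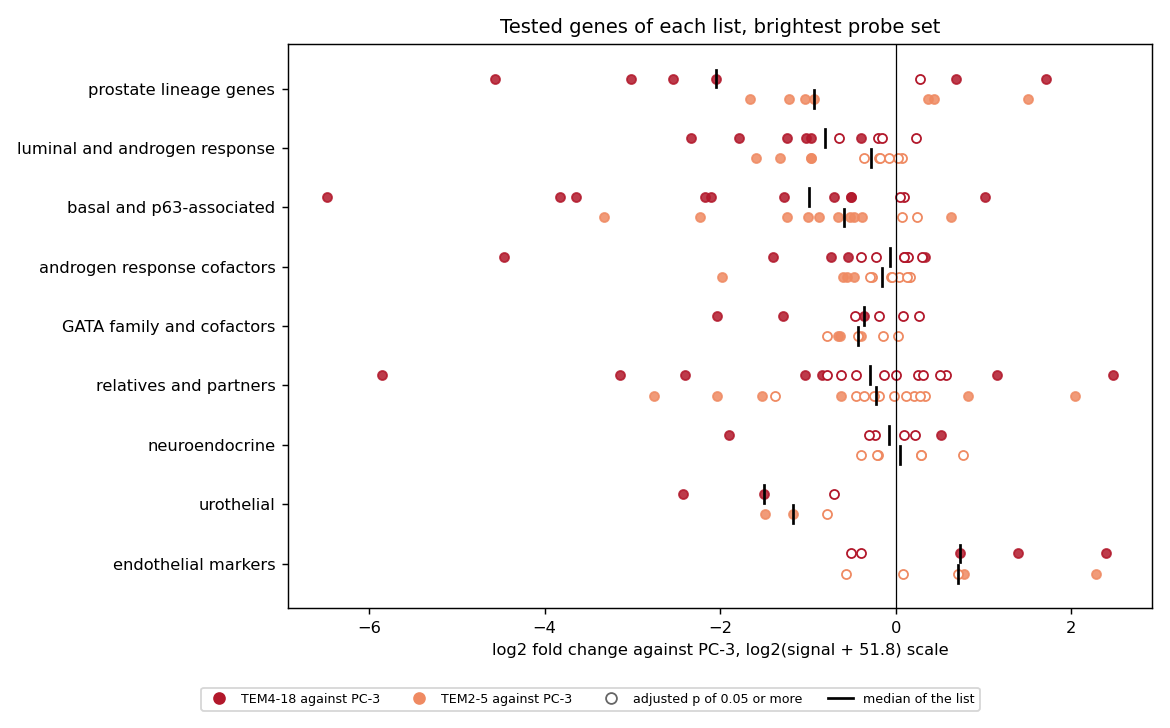
Log2 fold change against PC-3, on the log2(signal + 51.8) scale, of the tested genes of each list in TEM4-18 and TEM2-5; each point is 1 gene by its brightest probe set, open points have an adjusted p of 0.05 or more, and black bars are list medians. The basal list has medians of -0.99 in TEM4-18 and -0.59 in TEM2-5, and the neuroendocrine list has medians of -0.08 in TEM4-18 and 0.04 in TEM2-5.

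Genes with the pattern most like each member were found by the root mean square difference of log2 signals over the 6 arrays, each centred on its PC-3 mean. For GATA2 they were TGFA, a ligand of the EGF receptor (0.214), TRBC1 (0.308) and STC2, a secreted stanniocalcin (0.325). TGFA had mean signals of 280.9 in TEM4-18, 3709 in TEM2-5, and 9550 in PC-3, with log2 fold changes of -4.88 in TEM4-18 and -1.35 in TEM2-5. For GATA3 they were CXXC5 (0.202), DSP, the desmoplakin gene (0.202), and OSBPL10 (0.204). DSP had means of 3022 in TEM4-18, 7476 in TEM2-5, and 17393 in PC-3.

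The genes closest to FOXA1 were SLC51A (0.247), RAP1GAP, which switches off the small GTPase RAP1 (0.258), and DUSP2, a phosphatase of MAP kinases (0.299). DUSP2 itself did not pass in either line, with adjusted p of 0.0605 in TEM4-18 and 0.125 in TEM2-5. Those closest to TMPRSS2 were DDX5, an RNA helicase gene (0.135), IRF8 (0.141) and LYPLAL1-AS1 (0.146). IRF8 was dim in PC-3, at 123.4 and 30.0, and did not pass in TEM2-5 (adjusted p = 0.0609). DDX5 probe set 225886_at had means of 3903 in TEM4-18, 3472 in TEM2-5, and 1343 in PC-3. The genes closest to TRIM29 were LITAF (0.188), MYH14, a non-muscle myosin gene (0.202), and FGD4 (0.232). FGD4 was dim in TEM4-18, at 7.02 and 9.29, and did not pass in TEM2-5 (adjusted p = 0.202). LITAF had means of 166.9 in TEM4-18, 793.2 in TEM2-5, and 1609 in PC-3. HOXB13 and STEAP1 changed by less than 1 on the log2 scale in their brightest probe sets and were not matched in this way.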

How the data were processed

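Total RNA of 3 cell lines was measured on 6 arrays, 2 per line. The deposited values are linear signal intensities per probe set, made by the authors with MAS5 per the submitters' processing notes. Their 2% trimmed means lay between 1500.17 and 1500.18, so they were not normalized again. Detection calls were not used here. Of 54675 probe sets, 62 controls were left out. Symbols came from the platform annotation: 41097 probe sets had 1 symbol, 1801 several and 11777 none. Matching by gene ID to RefSeq (GRCh38.p14) changed 0 symbols and left 54 probe sets unmatched. Coordinates are given only for RefSeq promoter entries.

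Signals were transformed to log2(value + 51.8), the 20th percentile of all values, and kept where the mean over arrays exceeded 178, the 40th percentile (32518 probe sets). limma 3.58.1 in R 4.3.3 (lmFit, eBayes with trend) was fitted to all 6 arrays with 3 residual degrees of freedom. The fit was also run on simulated data with the same spread for every probe set, which cannot check how unequal spread is handled. P-values are two-sided, and those of every probe set kept were adjusted by Benjamini-Hochberg, with a threshold of 0.05. Errors of fold changes are standard errors. The single-symbol probe set with the highest mean stands for a gene. The number of arrays limits the precision, and 2 arrays a line allow no useful permutation test.

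The members and gene lists were chosen with earlier results of these data known. All member probe sets are described. The 3 genes most like a member are named where it passed with a log2 fold change of at least 1 in its brightest probe set. From other lists a preset group and the 4 genes with the largest change in both lines could be named. ENO2, DSC3, STEAP3, COL1A1, UPK1B, ITGAM and the endothelial markers other than KDR and ROBO4 were named after their values were seen. Alternatives covered pseudocount, filter, quantile normalization, trend, replicate block, averaged probe sets and each array left out. Replicate numbers were not taken as pairs. The second TEM2-5 array is called replicate 1 in its source name, and its title was followed.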

Additional observations from a re-analysis of the deposited data

Results flagged for a closer look

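In 4 probe sets the effects of the isolated lines differed by the direct test between TEM4-18 and TEM2-5. GATA2 209710_at was lower in TEM4-18 by 3.34 on the log2 scale (fold change -3.34 ± 0.19, SE, adjusted p = 5.96e-06). GATA3 209604_s_at was at -1.61 ± 0.17 (adjusted p = 0.000631) and TRIM29 202504_at at -1.99 ± 0.29 (adjusted p = 0.00601). TMPRSS2 205102_at was higher in TEM4-18, at 0.86 ± 0.18 (adjusted p = 0.0408), and failed with any 1 TEM array left out. With all probe sets of a gene averaged, GATA2 was at -1.51 (adjusted p = 0.00204), while GATA3 at -1.05 (adjusted p = 0.204) and TRIM29 at -1.12 (adjusted p = 0.232) did not pass. TRIM29 also failed without either TEM2-5 array.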

How the results depend on the processing

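TEM4-18 minus PC-3 called 8390 probe sets, and 5404 without the mean-variance trend. TEM2-5 minus PC-3 called 5331, and 2353 without the trend. TEM4-18 minus TEM2-5 called 584, with 300 without the filter and 127 without the trend. Leaving out 1 array gave 5974 to 7761, 2842 to 5136 and 220 to 553 in the same order of comparisons. Of the 7 genes, the TEM2-5 count of 7 became 3 without the filter, 3 without the trend, 2 with probe sets averaged and 3 to 7 with 1 array left out. The TEM4-18 count of 6 was 5 to 6 with 1 array left out. The count between TEM lines, 3, became 1 with probe sets averaged and 2 to 3 with 1 array left out.

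Signs turned only in values that had not passed. GATA2 207954_at in TEM4-18 was 0.02 after quantile normalization, 0.06 without PC-3 replicate 1 and 0.25 without TEM4-18 replicate 2 (range over left-out arrays -0.34 to 0.25), and against TEM2-5 it was 0.08 without TEM4-18 replicate 2 (range -0.52 to 0.08). FOXA1 204667_at between TEM lines was 0.31 without TEM4-18 replicate 2 and 0.27 without TEM2-5 replicate 1 (range -1.09 to 0.31), and STEAP1 was 0.02 without TEM4-18 replicate 1 (range -0.21 to 0.02). The cause was not tested. Same-numbered arrays had deviation correlations of 0.0649, 0.0827 and 0.0968. With the replicate number as a block, 9441, 6433 and 871 probe sets and 7, 7 and 3 of the genes were called. With 2 arrays a line, values near the pseudocount limit what low signals can show.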
